A study of Mus musculus with 8 samples.

Results

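Chemokines are small secreted or membrane-tethered proteins that set the direction in which leukocytes move, and they act through receptors of the G protein-coupled family. Conventional receptors signal through Gi proteins to Rac and the actin cytoskeleton, whereas atypical receptors bind, present or remove ligands without that signal. In skin, Langerhans cells that leave the epidermis travel to the draining lymph node along a gradient of Ccl19 and Ccl21, read by Ccr7, and the epidermis itself makes chemokines that draw T cells, neutrophils and monocytes.

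The genes described are the 54 protein-coding chemokine genes (32 ligands and 22 receptors) among the 25247 genes of the count table. They were chosen by symbol, as the CC, CXC, CX3C and XC ligands and receptors, the atypical receptors Ackr1 to Ackr4 and Ccrl2. Langerhans cells, which are the epidermal dendritic cells, were sorted from ear skin of C57BL/6 mice that were wild type (WT) or EZH2 -/- (KO), with 4 libraries of each genotype, and bulk RNA was sequenced. Ezh2 is the histone H3K27 methyltransferase of Polycomb repressive complex 2, and the series concerned migration of these cells and contact allergy of the skin. The labels name no treatment, no age, no promoter or Cre driver of the deletion, and no pooling of animals. They also do not say that libraries came from separate animals, so a p-value below weighs only library-to-library spread, some of which may be technical.

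The genotype of 4 of the 8 libraries was in dispute. Both the title and the description of a sample carry a library code, and each column of the table carries 1 such code. Title and description gave the same genotype for RMN030 and RMN031 (WT) and for RMN038 and RMN039 (KO). By title RMN032 and RMN033 were KO and RMN036 and RMN037 were WT, and by description the reverse held. Every comparison was therefore made 3 ways: in the 4 undisputed libraries (2 of each genotype), by title code (4 of each) and by description code (4 of each). The 3 groupings share libraries, so their results are not independent of each other. The earlier codes (RMN030, RMN031, RMN032 and RMN033) and the later codes (RMN036, RMN037, RMN038 and RMN039) coincide with genotype in the 4 undisputed libraries and again in the description reading, so genotype and code run cannot be told apart there. By title each genotype has 2 libraries in each code run. In what follows, 4 values in a row are in the order of these codes.

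Library totals ranged from 11051402 to 18966195 counts. Cd207, the langerin gene that defines Langerhans cells, stood at 9706 to 11962 CPM (counts scaled to the library total) and Epcam at 558 to 672 CPM, and none of the 12 genes of the Langerhans list was at 0. The 12 keratinocyte markers, also all detected, summed to 13786 to 17882 CPM. Transcripts of other cells differed by library. The 21 T lineage markers summed to 396 and 393 CPM in RMN030 and RMN031 and to 41.8 to 59.0 CPM in the other 6 libraries. The 8 mast cell markers in the table summed to 36.8 to 46.1 CPM in the earlier codes and 58.4 to 75.0 CPM in the later ones, and the 10 fibroblast and endothelial markers to 38.0 to 65.0 and 124 to 203 CPM. The 5 blood markers summed to 122 to 226 CPM in the earlier codes and 580 to 1355 CPM in the later ones. Ezh2 transcript was present in every library, at 15.7 to 22.4 CPM in WT and 10.5 to 15.2 CPM in KO by title and at 14.9 to 22.4 and 10.5 to 19.0 CPM by description. These counts cover the whole gene, so they do not test the deletion.

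In these libraries 2 ligands and 2 receptors held most of the summed level of their kind. All 54 genes had at least 1 count in some library, as did all 25247 genes of the table. Detection of these 54 was therefore given by the table and is not a result. Family genes without a row in the table are not counted, and Ccr6, for one, is not among the 54. Of the ligands, 19 averaged 1 CPM or more and 13 averaged less, and 19 had a count in every library. Of the receptors, 9 averaged 1 CPM or more and 13 less, and 8 had a count in every library. Per length, in TPM (length-corrected CPM, from the exon length of each gene), 11 ligands but only 2 receptors averaged 10 or more. Cxcl16 and Cxcl2 together made up 80.4% to 84.7% of the summed ligand TPM of a library, and Ccrl2 and Ccr7 made up 88.7% to 92.8% of the summed receptor TPM. The plot of levels gives every gene that averaged 1 TPM or more.

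**Figure D1:**
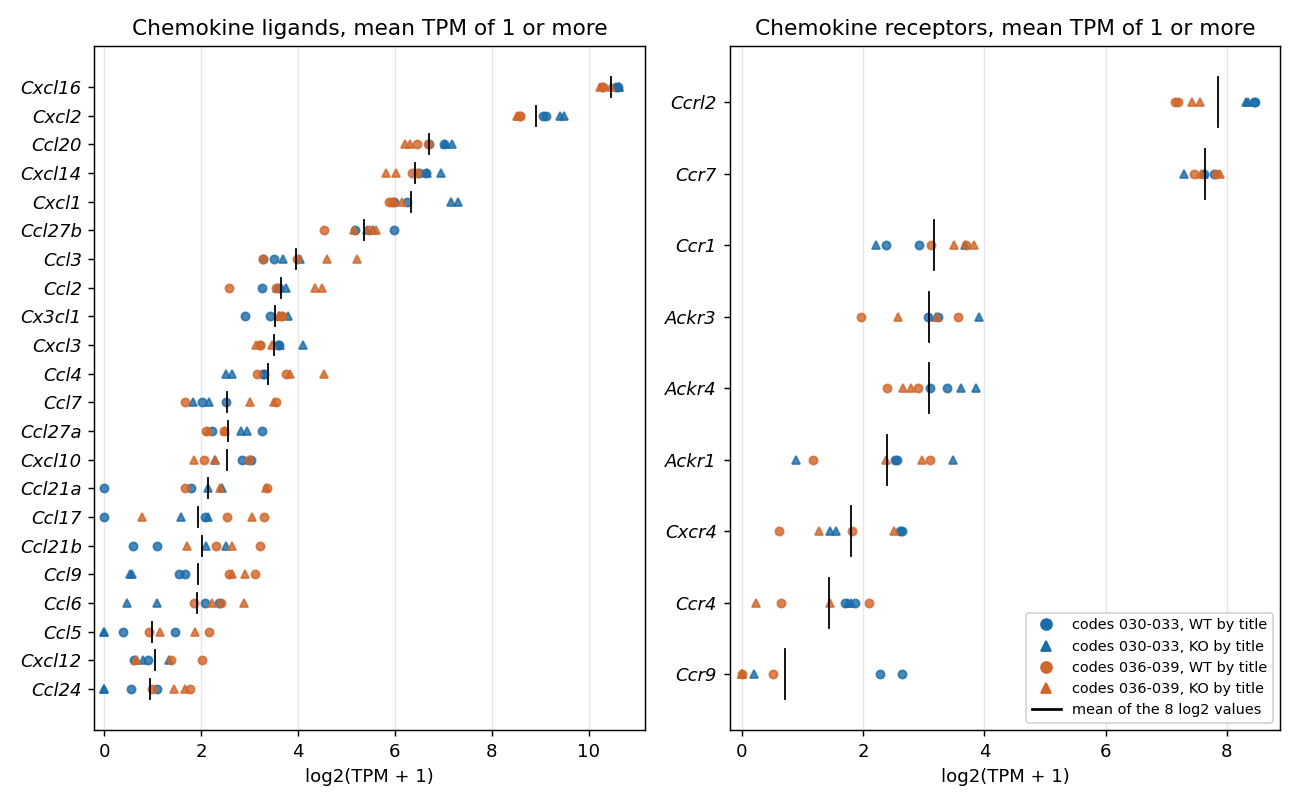
Levels of the 22 ligands and 9 receptors with a mean of 1 TPM or more, as log2(TPM + 1) on the horizontal axis, with 1 point per library. Colour marks the code run, shape the genotype by title, and the black bar the mean of the 8 log2 values. Cxcl16 and Cxcl2 lead the ligands, and Ccrl2 and Ccr7 stand far to the right of the other receptors, with the later codes to the left of the earlier ones for Ccrl2.

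Ligand by ligand, the highest level belonged to Cxcl16, a membrane-anchored chemokine that binds Cxcr6 and also serves as a scavenger receptor. Its mean was 1415 ± 166 TPM (SD, n = 8 libraries). Cxcl16 stood at 1667, 1670.5, 1693 and 1707 CPM in the earlier codes and at 1451, 1414, 1399 and 1628 CPM in the later codes. All 4 later codes were below all 4 earlier codes, by a small margin. By description code the log2 fold change (KO minus WT) was -0.15 (SE 0.0746, adjusted p = 0.436, edgeR quasi-likelihood test with Benjamini-Hochberg adjustment over all genes, as in all fits below), which did not pass the threshold of 0.05. Zmynd15 overlaps 18.3% of the Cxcl16 exon bases on the opposite strand, and no source used here gives the strand setting of the counting.

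The ligands of the neutrophil receptor Cxcr2 covered a wide range of levels. Cxcl2, next after Cxcl16, averaged 497 ± 145 TPM, Cxcl1 85.8 ± 40.1 TPM and Cxcl3 10.6 TPM. Cxcl2 was at 399.6, 405, 493 and 535 CPM in the earlier codes and at 302, 299.6, 296 and 290.2 CPM in the later codes. The later codes lay close together and below every earlier code, and RMN032 and RMN033 were the highest. Cxcl1 was at 42.3, 49.9, 104 and 95.7 CPM in the earlier codes and at 41.8, 42.7, 44.8 and 50.1 CPM in the later codes. Here only RMN032 and RMN033 stood out, and the other 6 libraries lay close together. Cxcl3 was at 14.3, 13.7, 14.1 and 20.5 CPM in the earlier codes and at 11.2, 10.97, 13.6 and 10.5 CPM in the later codes. RMN033 was the highest, and no later code reached the lowest earlier one.

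Cxcl1, Cxcl2 and Cxcl3 lie in 1 cluster on chromosome 5. They are shown with the start of their promoters because this gene group is a textbook target of NF-kB. In CPM each was highest in RMN032 or RMN033, as were Cxcl16, Ccl20, Cxcl14, Cx3cl1 and Ackr4, among others. Each line gives the 130 bases before the transcription start (RefSeq, build GRCm38.p6, plus strand), and capitals mark the match to the kB-type motif, GGGA, any 2 bases and TTCC, read on both strands.
Cxcl1: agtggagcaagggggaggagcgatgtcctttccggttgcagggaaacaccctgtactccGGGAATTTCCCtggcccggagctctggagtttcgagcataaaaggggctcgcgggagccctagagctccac
Cxcl2: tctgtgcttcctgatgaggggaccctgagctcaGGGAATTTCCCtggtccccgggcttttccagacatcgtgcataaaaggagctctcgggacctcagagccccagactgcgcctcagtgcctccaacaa
Cxcl3: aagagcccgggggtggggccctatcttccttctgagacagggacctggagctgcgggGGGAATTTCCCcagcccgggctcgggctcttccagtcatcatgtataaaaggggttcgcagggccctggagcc
The windows are chr5:90891115-90891244 for Cxcl1, chr5:90903769-90903898 for Cxcl2 and chr5:90785971-90786100 for Cxcl3. All 3 hold the same 11-base run GGGAATTTCCC, which matches the motif once on each strand with overlap, beginning 71, 97 and 73 bases before the start. Over the 300 bases of each promoter in the RefSeq table (250 before to 50 after the start), searched on both strands, the motif was found in 482 of 32851 promoters (1.47%). It occurred in 6 of the 50 promoters of chemokine genes in that table (12.0%), each of another gene: Ccl1, Ccr3, Cxcl1, Cxcl10, Cxcl2 and Cxcl3. These genes include close copies of one another, and a match is a description of the sequence, not a site in use. The promoters of Ccl20 and Ccrl2 held no match. Cxcl2 and Cxcl3 also share transcript sequence, with 5.84% of the 50-base stretches of Cxcl2 found in another gene, so a small part of their reads could be assigned to either.

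Ligands of the epithelium ranked between Cxcl2 and Cxcl1 or just below Cxcl1. Ccl20, the ligand of Ccr6, averaged 105 ± 26.0 TPM, and Cxcl14, a chemokine made by resting epidermis, 86.9 ± 21.0 TPM. Ccl20 was at 66.7, 51.8, 65.1 and 72.8 CPM in the earlier codes and at 47.1, 54.9, 39.8 and 42.5 CPM in the later codes. The later codes were mostly lower, but RMN037 was above RMN031. Cxcl14 was at 59.3, 63.8, 78.7 and 65.3 CPM in the earlier codes and at 56.5, 59.9, 45.2 and 38.9 CPM in the later codes. RMN038 and RMN039 were the lowest, and RMN032 the highest. Ccl27b, a copy of the keratinocyte chemokine that binds Ccr10 on skin-homing T cells, averaged 41.8 ± 11.8 TPM on an exon length of 425 bases. Ccl27b was at 9.70, 5.28, 6.86 and 6.43 CPM in the earlier codes and at 3.63, 7.01, 7.88 and 5.70 CPM in the later codes. No code run or genotype stood apart. Of its 50-base stretches 98.1% also occur in other genes, Ccl27a among them, so the Ccl27 values are uncertain. The keratinocyte markers summed to 13786 to 17882 CPM in the same libraries, and their part in the levels of these ligands was not tested.

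The inflammatory CC ligands were low. Ccl3, a ligand of Ccr1, averaged 16.2 ± 9.32 TPM, Ccl2, the main ligand of the monocyte receptor Ccr2, 12.5 ± 5.47 TPM, and Ccl9, a mouse ligand of Ccr1, 3.68 ± 2.77 TPM. Ccl3 was at 2.90, 2.37, 3.25 and 4.27 CPM in the earlier codes and at 2.55, 4.32, 6.89 and 10.6 CPM in the later codes. The undisputed KO libraries RMN038 and RMN039 were the highest. Ccl2 was at 4.66, 3.45, 4.35 and 5.06 CPM in the earlier codes and at 4.71, 2.16, 9.45 and 8.51 CPM in the later codes. Again RMN038 and RMN039 were the highest, and RMN037 was the lowest. Ccl9 was at 2.14, 2.37, 0.490 and 0.527 CPM in the earlier codes and at 5.85, 8.87, 6.11 and 7.60 CPM in the later codes. All later codes lay above all earlier ones, and within the earlier codes RMN032 and RMN033 were below RMN030 and RMN031.

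Cxcl12, the ligand of Cxcr4 and Ackr3 and a product of stromal cells, averaged 1.19 ± 0.861 TPM. Cxcl12 was at 2.60, 1.56, 2.14 and 4.48 CPM in the earlier codes and at 9.55, 5.03, 1.85 and 1.81 CPM in the later codes. RMN036 was the highest, and no grouping separated the libraries. The other 22 ligands lay between 0 and 20.5 CPM. Among them Cx3cl1, the tethered ligand of Cx3cr1, was at 8.995 to 17.8 CPM, and Ccl4, an inflammatory ligand, at 1.11 to 5.68 CPM. At the low end, Ccl8 and Ccl12 each had 4 counts, all in RMN037, Xcl1 had 3 counts and Ccl11 had 8. Ccl19 had 14 counts in 2 libraries, and Ccl21a, like Ccl19 a ligand of Ccr7, lay at 0 to 3.09 CPM with 71.6% of its 50-base stretches shared with other genes.

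Among the receptors Ccrl2 was the highest. This atypical receptor (ENSMUSG00000043953, GRCm38 chr9:111054486-111057519, minus strand) binds chemerin and holds it at the cell surface without signalling. It averaged 248 ± 94.9 TPM and had 29755 counts over the 8 libraries. Ccrl2 was at 333, 321, 297 and 295 CPM in the earlier codes and at 141, 143, 187 and 170.2 CPM in the later codes. Every later code was below every earlier code, the 2 groups of 4 lay far apart, and none of its transcript sequence is shared with another gene. Ccr7, the receptor for Ccl19 and Ccl21 that takes dendritic cells to the lymph node, averaged 199 ± 26.8 TPM. Ccr7 was at 158, 138, 137 and 110.0 CPM in the earlier codes and at 133, 169, 144 and 179 CPM in the later codes. RMN033 was the lowest and RMN039 the highest, and WT and KO overlapped in all 3 groupings.

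**Figure D2:**
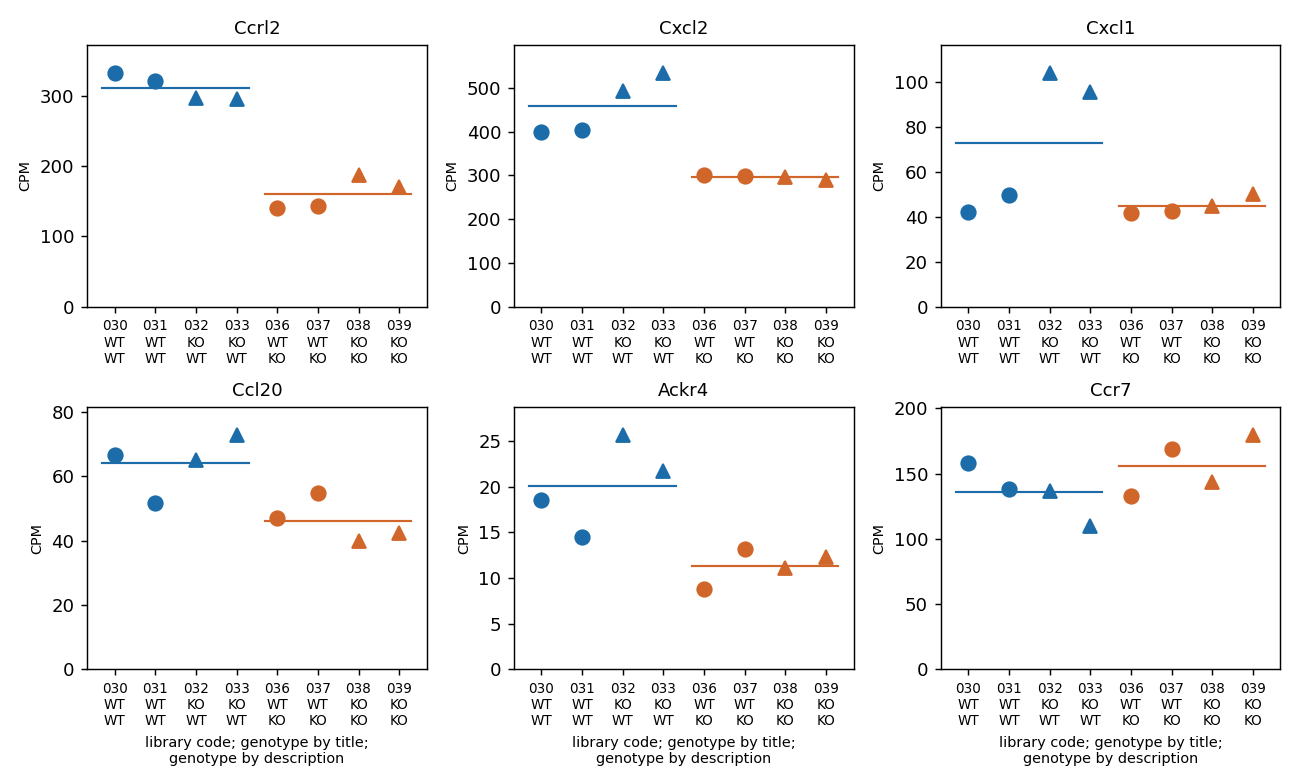
CPM of Ccrl2, Cxcl2, Cxcl1, Ccl20, Ackr4 and Ccr7 in each library, with the library code, the genotype by title and the genotype by description under each point. Lines are the means of each code run, blue for the earlier and orange for the later codes. Ccrl2 falls into 295 to 333 CPM and 141 to 187 CPM by code run, whereas Cxcl1 is high in RMN032 and RMN033 alone and Ccr7 overlaps.

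The other conventional receptors were more than an order of magnitude lower. Ccr1, a receptor for Ccl3 and, in mouse, for Ccl9, averaged 8.67 ± 3.67 TPM. Ccr1 was at 4.35, 6.63, 11.8 and 3.69 CPM in the earlier codes and at 8.34, 12.9, 11.2 and 14.3 CPM in the later codes. RMN033 was the lowest and RMN039 the highest, RMN032 was as high as the later codes, and the groups overlapped by title and by description. Cxcr4, the Cxcl12 receptor, averaged 2.89 ± 1.84 TPM, and Ccr4, which reads Ccl17 on skin-homing T cells, 1.94 ± 1.06 TPM. Cxcr4 was at 3.36, 3.34, 1.10 and 1.27 CPM in the earlier codes and at 1.75, 0.360, 0.994 and 3.26 CPM in the later codes. Ccr4 was at 2.98, 2.48, 2.57 and 2.74 CPM in the earlier codes and at 0.672, 3.84, 0.213 and 2.08 CPM in the later codes. Both varied several-fold among the later codes.

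The atypical receptors Ackr3, Ackr4 and Ackr1 were also low. Ackr3, a scavenger of Cxcl12, averaged 8.13 ± 3.38 TPM, and Ackr4, which removes Ccl19, Ccl21 and Ccl25, 7.98 ± 3.17 TPM. Ackr3 was at 10.2, 8.83, 16.6 and 9.81 CPM in the earlier codes and at 3.76, 13.8, 6.39 and 10.7 CPM in the later codes. Ackr4 was at 18.6, 14.5, 25.6 and 21.7 CPM in the earlier codes and at 8.81, 13.2, 11.1 and 12.3 CPM in the later codes. Ackr3 overlapped in every grouping, while every later code of Ackr4 was below every earlier code. Ackr1, the Duffy antigen of red cells and venules, averaged 5.08 ± 3.13 TPM. Ackr1 was at 2.52, 2.37, 0.429 and 5.11 CPM in the earlier codes and at 0.672, 4.08, 3.69 and 2.26 CPM in the later codes. It had no common pattern with code run or genotype. Acad11 overlaps 8.90% of the Ackr4 exon bases on the opposite strand, and Cadm3 overlaps 25.7% of those of Ackr1 on the same strand, so both values are uncertain.

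Ccr9 (ENSMUSG00000029530, GRCm38 chr9:123678439-123784330, plus strand) and Ccr2 (ENSMUSG00000049103, chr9:124101950-124113557, plus strand) were concentrated in some of the libraries. Ccr9, the receptor for Ccl25 on thymocytes and gut-homing T cells, was at 14.5, 19.01, 0 and 0.527 CPM in the earlier codes and at 0, 1.68, 0 and 0 CPM in the later codes. RMN030 and RMN031 held 543 of its 581 counts. Ccr2, the receptor of inflammatory monocytes, was at 0, 0.108, 0 and 0.105 CPM in the earlier codes and at 1.75, 2.88, 0.710 and 1.45 CPM in the later codes. The later codes held 100 of its 104 counts. The 12 remaining receptors lay between 0 and 2.49 CPM. Of these, Cxcr2, the neutrophil receptor for Cxcl1, Cxcl2 and Cxcl3, was at 0 to 2.49 CPM, Cxcr6, the receptor for Cxcl16, at 0 to 1.99 CPM, and Cx3cr1 at 0 to 0.527 CPM. Cxcr3, which reads interferon-induced ligands, had 37 counts, all in RMN037, RMN038 and RMN039, and Ccr1l1 had 2 counts.

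In the undisputed libraries 2 receptors fell in KO and no ligand passed the test. Of 14727 genes tested 117 passed (0.794%), with 0.448% higher and 0.346% lower in KO, and of the 33 chemokine genes tested 2 did, Ccr9 and Ccrl2, both receptors and both lower in KO. Ccr9 met the filter on low counts only through the WT libraries, where it is high, so its call adds no independent support. Ccrl2 was at 327 ± 8.43 CPM in WT and 179 ± 11.9 CPM in KO (SD, n = 2 each), and its log2 fold change was -0.83 (SE 0.138, edgeR adjusted p = 0.0196). The call was lost without RMN039 (log2 fold change -0.77, edgeR adjusted p = 0.0719), with a range of adjusted p of 4.69e-06 to 0.0719 over 9 alternatives. In bulk samples a lower share of cells that carry a transcript and less transcript per cell cannot be told apart. Genotype and code run cannot be told apart in these libraries either.

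Ccr9 had 543 counts in the WT libraries and 0 in KO, which makes it at least 144-fold lower against a floor of 3 counts over the group (edgeR adjusted p = 0.000146). If the mates of a pair were counted separately, 3 counts stand for fewer fragments, and the bound would be lower. The T lineage markers moved with it, at 396 and 393 CPM in the WT libraries and 41.8 and 52.9 CPM in KO. Among them Cd3e, a chain of the T cell receptor complex, was at 7.33 and 6.46 CPM in WT and 0.142 and 1.09 CPM in KO. RMN032 and RMN033, also of the earlier codes, held 0 and 0.527 CPM of Ccr9 and 0.306 and 0 CPM of Cd3e. The part of T lineage transcripts in the difference of Ccr9 was not tested. Of its 50-base stretches 20.1% occur in other genes.

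The median log2 fold change was -0.09 over the 21 ligands tested and -0.29 over the 12 receptors tested, beside -0.0016 over all genes. Of the ligands 10 were positive and 11 negative, 6 had an unadjusted p under 0.05 in edgeR, and 0 passed after adjustment in edgeR, in DESeq2 or in limma voom. The smallest p-values among the ligands belonged to Ccl3 (log2 fold change 1.77, SE 0.445, edgeR adjusted p = 0.122), Ccl9 (1.64, SE 0.466, adjusted p = 0.188) and Cxcl2 (-0.41, SE 0.129, adjusted p = 0.232). Ccl3 passed in 2 of 9 alternatives, with no filter on low counts (adjusted p = 0.0225) and without RMN038 (log2 fold change 2.05, adjusted p = 0.0109), and Cxcl2 passed without RMN031 (adjusted p = 0.0212). Ccl2 stood at 4.05 CPM in WT and 8.98 CPM in KO (log2 fold change 1.19, SE 0.401, adjusted p = 0.270). For Ccr1 the log2 fold change was 1.26 (SE 0.371, adjusted p = 0.201), and for Ccr7 it was 0.17 (SE 0.168, adjusted p = 0.791). Among the genes tested, all KO libraries lay above all WT libraries for 8 ligands and 1 receptor and below them for 7 ligands and 5 receptors. That is 71.4% of the 21 ligands and 6 of the 12 receptors, beside 42.1% of all genes tested (16.9% higher and 25.2% lower in KO). Ccr9, among these receptors, was tested through its high group alone.

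By title code no chemokine gene passed the test. The count over all 14630 genes was also 0 (0% called), with 672 genes at an unadjusted p under 0.05 in edgeR, 19 called by DESeq2 and 0 by limma voom. Of 20 ligands and 11 receptors tested 0 passed in these 3 tools, 3 ligands and 0 receptors had an unadjusted p under 0.05, and WT and KO overlapped for all 31, beside 2.94% of all genes without overlap (1.41% higher and 1.53% lower in KO). The median log2 fold change was 0.12 over the ligands, -0.07 over the receptors and -0.0033 over all genes. Ccr9, at a mean of 8.80 CPM in WT and 0.132 CPM in KO by title, was not tested in this fit. The filter on low counts removed it here and by description code.

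The ligand nearest the threshold by title was Cxcl1, at 44.2 ± 3.85 CPM in WT and 73.7 ± 30.6 CPM in KO (SD, n = 4 each). Its log2 fold change was 0.72 (SE 0.230, unadjusted p = 0.00822, edgeR adjusted p = 0.998; exact permutation p = 0.0571). Within the earlier codes alone it passed, at 1.08 on the log2 scale (edgeR adjusted p = 0.0252), and so did Ccr9 (-5.91, adjusted p = 0.00349), beside 0.375% of all genes called. Ccr9 met the filter there only through RMN030 and RMN031, where it is high, so that call adds no independent support. Within the later codes alone the log2 fold change of Cxcl1 was 0.19 (adjusted p = 0.861), and 0% of all genes were called, with 1098 at an unadjusted p under 0.05 in edgeR. With code run as a covariate it was 0.64 (adjusted p = 0.563), also with 0% called and 900 genes at an unadjusted p under 0.05 in edgeR. For Ccl3 it was 1.04 (SE 0.406) by title, for Ccl2 0.87 (SE 0.363) and for Cxcl12 -0.87 (SE 0.537), each with an adjusted p of 0.998. Cxcl12 was positive within the earlier codes (0.65, adjusted p = 0.843) and negative within the later ones (-1.96, adjusted p = 0.498). Ccr7 stood at 149 ± 16.7 CPM in WT and 142 ± 28.6 CPM in KO, with a log2 fold change of -0.07 (SE 0.152). For Cxcl2 the log2 fold change was 0.18 (SE 0.186).

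The test of whether the title contrast differs between the code runs called 7 of 14630 genes (0.0478%) and no chemokine gene of 31, with 7 of them at an unadjusted p under 0.05 in edgeR. Cxcl1 had the smallest p, with a contrast lower by 0.88 on the log2 scale in the later codes (difference -0.88, SE 0.222, adjusted p = 0.305). Ccrl2 followed with a difference of 0.54 (SE 0.149, adjusted p = 0.358), Ccl9 with 2.09 (SE 0.633, adjusted p = 0.410) and Cxcl12 with -2.60 (SE 0.792, adjusted p = 0.413). DESeq2 and limma voom were not run for this difference.

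By description code, which is also the split of the code runs, 2 chemokine genes fell and 2 rose in KO. Ccrl2 and Cxcl2 were lower, Ccl9 and Ccr2 higher, so 4 of 31 genes tested passed beside 296 of 14630 genes (2.02%, with 1.43% higher and 0.595% lower). Ccr2 met the filter on low counts only through the later codes, where it is high, so its call adds no independent support. With genes of at least 1 CPM, where Ccr2 was not tested, 3 of 28 passed beside 2.32% of all genes. Ccrl2 was at 311 ± 18.5 CPM in WT and 160 ± 22.3 CPM in KO (SD, n = 4 each), and the log2 fold change was -0.92 (SE 0.111, edgeR adjusted p = 0.000696). Cxcl2 was at 458 ± 66.7 CPM in WT and 297 ± 5.12 CPM in KO, and the log2 fold change was -0.58 (SE 0.0948, edgeR adjusted p = 0.00598). Both calls held under all 16 alternatives, each single library left out among them. Both genes had an exact permutation p of 0.0286, the smallest that 4 against 4 allows. Every gene whose groups do not overlap gets this value, which holds for 8.82% of all genes tested. Cxcl16, Cxcl3 and Ackr4, which did not pass in edgeR, had it too. Genotype and code run cannot be told apart in this reading.

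Ccl9 was at 1.38 ± 1.01 CPM in WT and 7.11 ± 1.41 CPM in KO (log2 fold change 2.40, SE 0.490, edgeR adjusted p = 0.0233). The call was lost without each of RMN032, RMN033, RMN036, RMN037, RMN038 and RMN039, with adjusted p between 0.0511 and 0.0675 and log2 fold changes between 2.11 and 2.49 there. Ccr2 was at 0.0533 ± 0.0615 CPM in WT and 1.70 ± 0.900 CPM in KO, from 4 and 100 counts (log2 fold change 4.74, SE 0.899, edgeR adjusted p = 0.0158). It was tested only because the later codes, its high group, met the filter, so the call is not independent of that filter. That call was lost without each of RMN030, RMN032, RMN033, RMN036 and RMN037 (adjusted p 0.0535 to 0.0597, log2 fold change 4.36 to 5.17) and without RMN030 and RMN031 together (adjusted p = 0.134, log2 fold change 4.80). Some markers of other cells lay higher in the same libraries. The mast cell protease gene Mcpt4 was at 0.316 to 0.490 CPM in the earlier codes and 4.17 to 8.99 CPM in the later ones, and the macrophage gene Lyz2 at 46.1 to 78.7 and 114 to 158 CPM. The whole list of 14 macrophage and monocyte markers overlapped, at 707 to 960 CPM in the earlier codes and 835 to 898 CPM in the later ones, while the 8 mast cell markers did not overlap, at 36.8 to 46.1 and 58.4 to 75.0 CPM, and none of these genes was at 0 in all libraries. The part of these cells in the difference of Ccl9 and Ccr2 was not tested.

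**Figure D3:**
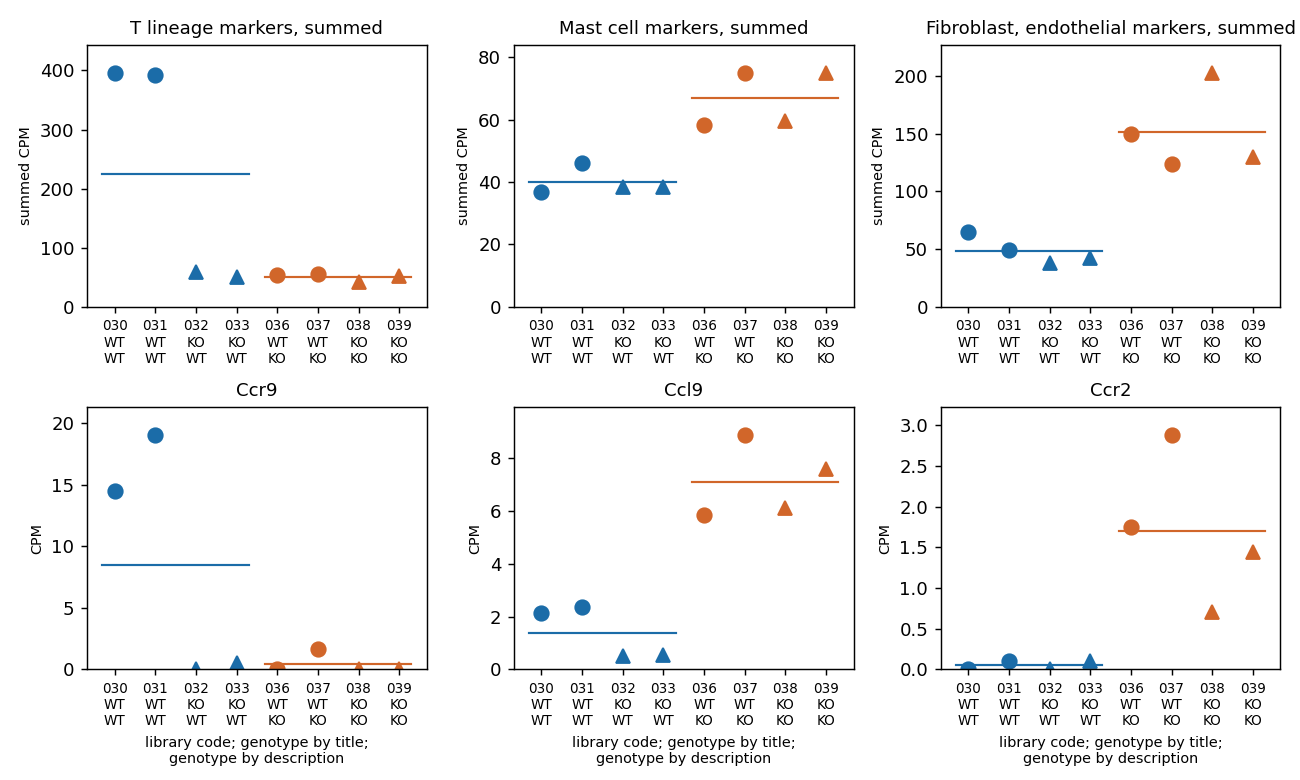
Summed CPM of the T lineage, mast cell, and fibroblast and endothelial marker lists (top) and CPM of Ccr9, Ccl9 and Ccr2 (bottom) in each library, with the code, the genotype by title and the genotype by description under each point. Lines are the means of each code run. Ccr9 and the T lineage sum are high in RMN030 and RMN031, and Ccl9, Ccr2 and the other lists are higher in the later codes.

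By description code the other genes with an unadjusted p under 0.05 were Ackr4, Ccl20, Cxcl1, Cxcl14 (lower in KO), Ccl4, Ccr1, Ccl3 and Ccl7 (higher in KO), and none passed after adjustment in edgeR. Ackr4 was at 20.1 ± 4.70 CPM in WT and 11.3 ± 1.90 CPM in KO (log2 fold change -0.78, SE 0.213, edgeR adjusted p = 0.0872) and passed in DESeq2 alone (adjusted p = 0.0189). On the log2 scale Ccl20 stood at -0.43 (SE 0.140, adjusted p = 0.161), Cxcl14 at -0.37 (SE 0.143, adjusted p = 0.268), Ccl4 at 1.16 (SE 0.445, adjusted p = 0.262), Ccl3 at 0.97 (SE 0.409, adjusted p = 0.327) and Ccl7, a further ligand of Ccr2, at 1.27 (SE 0.557, adjusted p = 0.354). Cxcl1 stood at -0.65 (SE 0.237, adjusted p = 0.227) and passed at -1.10 once RMN030 and RMN031 were left out (adjusted p = 0.00224), which leaves its 2 highest libraries as the only WT ones. For Ccr1 the log2 fold change was 0.87 (SE 0.336, adjusted p = 0.267). Farther from the threshold were Ccr7 at 0.24 (SE 0.132, adjusted p = 0.486) and Cxcl3 at -0.39 (SE 0.200, adjusted p = 0.456). Among the genes tested, WT and KO libraries did not overlap for 4 ligands of 20 (Cxcl16, Cxcl2, Cxcl3 and Ccl9) and 3 receptors of 11 (Ccrl2, Ackr4 and Ccr2), beside 8.82% of all genes tested (3.74% higher and 5.09% lower in KO). Ccr2 among them was tested through its high group alone. The median log2 fold change was -0.13 over the ligands, -0.04 over the receptors and -0.0085 over all genes. Summed over the family, ligands reached 2297 to 2554 CPM in the earlier codes and 1913 to 2137 CPM in the later ones, and receptors 453 to 554 and 306 to 401 CPM.

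**Figure D4:**
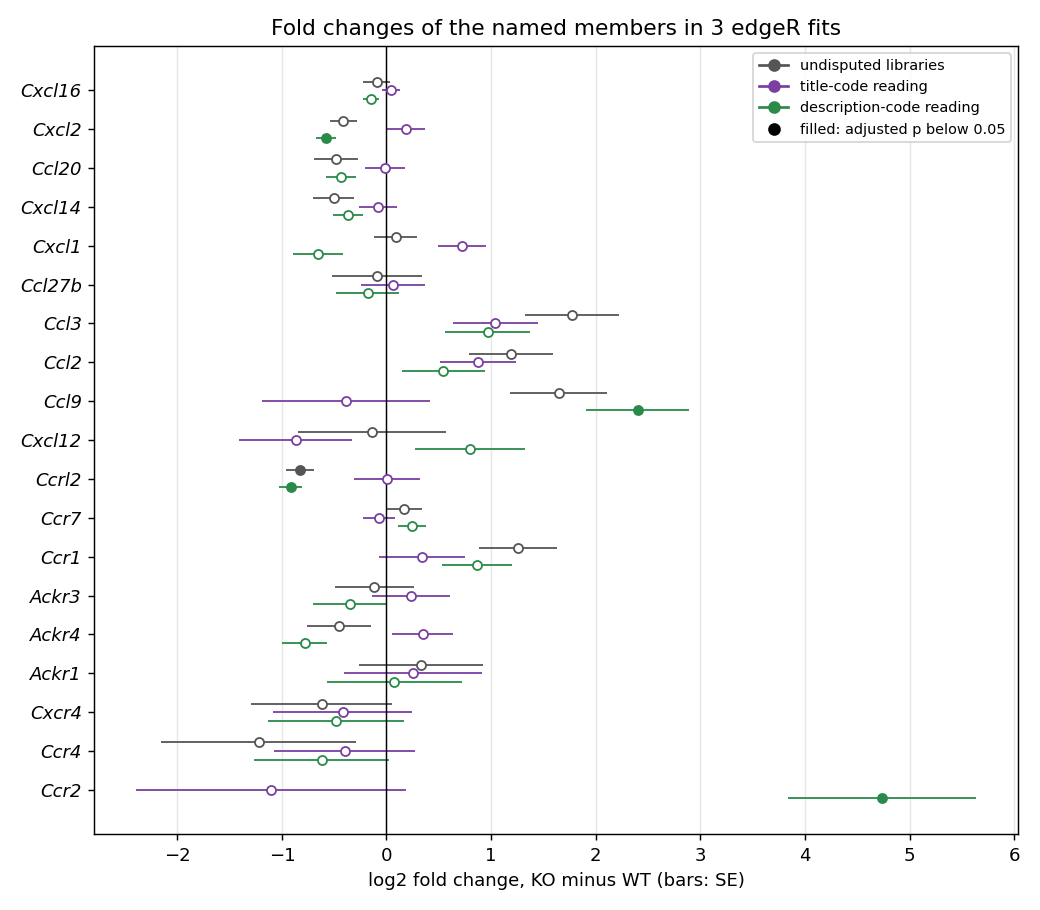
Log2 fold changes (KO minus WT) of 19 of the named genes in the undisputed libraries, by title code and by description code, with bars of 1 SE. Filled points have an adjusted p below 0.05. Ccr9 is left out because its KO libraries were at 0 in the undisputed comparison, and it was not tested by title or by description code. Ccrl2 is filled in the undisputed and description fits and lies near 0 by title, and no title point is filled.

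Downstream of the receptors, the list of 44 signalling genes (G protein subunits, kinases, arrestins, regulators of G protein signalling and Rac exchange factors) was counted in the same fits. In the undisputed libraries 1 of 43 tested rose and 1 fell, beside 0.448% of all genes higher and 0.346% lower, with a median log2 fold change of -0.11. Rac1, the broadly expressed GTPase that drives membrane protrusion, was at 183 and 150 CPM in RMN030 and RMN031 and at 554 and 292 CPM in RMN038 and RMN039 (log2 fold change 1.39, SE 0.248, edgeR adjusted p = 0.0272). The Rac1 call was lost without RMN030 (adjusted p = 0.908), without RMN031 (0.706), in DESeq2 (0.104) and in limma voom (0.0624). Rac2, its counterpart in blood cells, was at 16.6 and 14.4 CPM in WT and 2.56 and 2.90 CPM in KO (log2 fold change -2.46, SE 0.372, edgeR adjusted p = 0.0101). In the disputed libraries Rac2 was at 0.980 and 1.11 CPM in RMN032 and RMN033 and 2.96 and 2.997 CPM in RMN036 and RMN037, so it was high in RMN030 and RMN031 alone, as were the T lineage markers, whose part in it was not tested. Rac1 was at 60.3 and 36.1 CPM in RMN032 and RMN033 and at 400 and 420 CPM in RMN036 and RMN037. Sequence shared with other genes was not examined for these. By title code 0 of 43 passed in edgeR (beside 0% of all genes), DESeq2 or limma voom, with 4 at an unadjusted p under 0.05 in edgeR and a median log2 fold change of -0.09. By description code 0 of 43 passed in edgeR, 3 in DESeq2 and 1 in limma voom, beside 2.02%, 4.51% and 2.56% of all genes. There were 9 at an unadjusted p under 0.05 in edgeR, and the median log2 fold change was 0.02. Gnai1, a Gi subunit, came near the threshold there (log2 fold change 0.69, SE 0.174, edgeR adjusted p = 0.0611) and passed in DESeq2 (adjusted p = 0.00518).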

How the data were processed

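Bulk RNA-seq counts of 8 libraries of sorted Langerhans cells were used. The authors deposited raw read counts for each Ensembl gene, and the values show no normalization. Per the submitters' processing notes, STAR 2.5.2b, featureCounts 1.5.0 and GRCm38 (mm10) were used, and the strand setting was not given in the sources used here. Among counts from 1 to 20, 60.1% were even, so each mate of a pair may count as a read, and 0 value columns were left unused.

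Symbols were found for 25080 of 25247 identifiers, and coordinates and exon lengths came from GENCODE M21 (GRCm38). The genes and lists were chosen with earlier results of these data known, and 1 gene of the family is not reported here. Each of 4 fits (3 groupings, and the interaction of title genotype and code run) used all genes in edgeR 4.0.16 (R 4.3.3): filterByExpr, TMM, robust quasi-likelihood F-tests, two-sided, Benjamini-Hochberg adjustment over all genes tested, threshold 0.05. The SE of a log2 fold change comes from the F statistic. The fits were first tested on simulated data. filterByExpr removed 11 ligands and 10 receptors from the undisputed fit and 12 ligands and 11 receptors from each fit of all 8, and these were not tested there. Of the genes called, Ccr9 in the undisputed libraries and Ccr2 by description code met this filter only through the group where they are high.

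The fits were repeated without a filter, with genes of at least 1 CPM, with RLE size factors, with limma 3.58.1 (voom, quality weights), with DESeq2 1.42.0, with a replicate block, with code run as a covariate, within each code run, without RMN030 and RMN031, and without each library in turn. Values are given per library for genes past the threshold in any fit, the 8 ligands and 8 receptors highest in mean TPM and up to 4 genes with the smallest p in each fit. Cx3cl1, Cxcl3, Ccl4, Ccl7 and the other low genes named were picked after their values were seen. Two-sided exact permutation tests over libraries accompany some single genes.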

Additional observations from a re-analysis of the deposited data

Results flagged for a closer look

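In each genotype by title and by description, the library farthest from its group of 4 was examined for the 20 genes described library by library. Of 80 such groups 5 held a library far from the others by Dixon's criterion at 95%. The nominal rate of the criterion gives about 4. That rate presumes normal values and separate groups, whereas low counts are not normal and the groups share libraries.

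Cxcl1 was at 49.9 CPM in RMN031, while the other WT libraries by title were at 41.8 to 42.7 CPM. Cxcl12 was at 4.48 CPM in RMN033, against 1.81 to 2.14 CPM in the other KO libraries by title. Cxcr4 was at 3.26 CPM in RMN039, against 0.994 to 1.27 CPM in the other KO libraries by title. Ccr9 was at 0.527 CPM in RMN033, with 0 counts in the other KO libraries by title, and at 1.68 CPM in RMN037, with 0 counts in the other KO libraries by description. With 0 in all the others, the criterion flags any count, so the Ccr9 flags carry no information on distance.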

How the results depend on the processing

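The number of chemokine genes called was 2 in the undisputed libraries and ranged from 1 to 3 when a library was left out, which leaves 1 library in a group whose spread is taken to equal that of the other. It fell to 1 without RMN039. By title code it was 0 under every alternative except the earlier codes alone, where it was 2 (Cxcl1 and Ccr9). By description code it was 4 and ranged from 2 to 4 when a library was left out, with 2 left without RMN032, RMN033, RMN036 or RMN037. The interaction called 0 under every alternative run. Over all genes the undisputed count of 117 became 440 with no filter, 305 in DESeq2 and 263 to 629 with a library left out. The title count of 0 became 1 with no filter, 19 in DESeq2 and 57 in the earlier codes alone. The description count of 296 became 660 in DESeq2 and 140 to 219 with a library left out, and the interaction count of 7 became 178 with no filter and 0 to 8 with a library left out. The causes were not tested.

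Of 493 alternative values of 36 single results, 462 kept direction and side of the threshold, 17 lost a call, 9 gained one and 5 changed sign. Those 5 were Ccr7 in the undisputed libraries without RMN039 (-0.012, with a range of -0.012 to 0.32 over the libraries left out), Ccr7 by title without RMN033 (0.039, with a range of -0.22 to 0.039) and in the later codes alone (0.12), Cxcl12 by title in the earlier codes alone (0.65) and Cxcl2 by title in the later codes alone (-0.011), all log2 fold changes with no call. Title genotype as a covariate of the description reading was added after seeing the data and left 4 calls.

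Deviations of libraries with the same replicate number correlated at 0.0524 to 0.101 by title and -0.00682 to 0.0304 by description, so the numbers were not taken to pair the libraries. With the replicate block the calls among chemokine genes were 0 by title and 4 by description, and over all genes 0 and 174. Genes below about 1 CPM rest on few counts, and a difference in them was not detectable at this depth unless large.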
